A study of Homo sapiens with 8 samples.

Results

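Hepatocyte identity rests on a small set of transcription factors, and 9 genes of that set were followed here: the nuclear receptors HNF4A and NR1H4, the forkhead factors FOXA1, FOXA2 and FOXA3, the basic leucine zipper factors CEBPA and CEBPB, and the homeodomain factors ONECUT1 and PROX1. They were taken by name as 9 of the 86369 gene rows of the deposited count table, and all 9 were among the 13840 genes tested. The cells were HepG2, an established line from a human liver tumour, so a single tumour line and not primary hepatocytes. One group (siControl, here siCtrl) was transfected with a negative control short interfering RNA and the other (siNAT10) with one against NAT10, an RNA cytidine acetyltransferase, and total RNA was harvested at day 2. Each group had 4 libraries, with replicates 1 and 2 in batch 1 and replicates 3 and 4 in batch 2. The labels do not say what a batch was or whether replicates were separate cultures, so p-values measure the spread between these libraries, which may be technical.

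These factors form a cross-regulating network in hepatocytes. FOXA proteins open chromatin at liver enhancers, HNF4A and the C/EBP proteins drive plasma protein, lipid and metabolic genes, ONECUT1 and PROX1 act in liver development as well as in the adult organ, and NR1H4 encodes FXR, the nuclear receptor for bile acids. FXR pairs with RXR and induces NR0B2, a repressor of bile acid synthesis genes.

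Across the 9 factors, NR1H4 was the only one that passed the test between siNAT10 and siCtrl, at 20.7 ± 4.23 CPM (counts scaled to a common library total) against 13.0 ± 2.96 (SD, n = 4 each), a 1.6-fold higher level. The fitted log2 differences of the 9 factors ran from -0.52 for ONECUT1 to 0.68 for NR1H4. That is 1 of 9, against 2.28% of all tested genes. Between the batches 5 of 9 passed, against 25.3% of all tested genes: HNF4A, CEBPA and PROX1 were higher in batch 2, and CEBPB and NR1H4 were higher in batch 1.

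The library totals ran from 9731718 to 27977110 counts, and 19155 to 21825 genes were detected per library. The knockdown was read first. NAT10 had levels of 44.7, 39.2, 77.8 and 48.9 CPM in siCtrl replicates 1 to 4 and of 13.1, 12.2, 20.1 and 22.3 CPM in siNAT10 replicates 1 to 4. Every siNAT10 library lay below every siCtrl library, and NAT10 fell by 1.66 on the log2 scale (SE 0.14, adjusted p = 2e-05, edgeR quasi-likelihood F test with Benjamini-Hochberg adjustment over all tested genes, as for every adjusted p below unless another test is named). Of 10 hepatocyte markers, 9 were tested, and their summed level, APOB included, was 18550 to 21420 CPM in siCtrl and 13870 to 16360 CPM in siNAT10 libraries. APOB had 7 counts over all libraries, and whether its reads were lost in the counting was not tested. Nor was this tested for SERPINA1, a tested marker named for its low level of 1.70 to 13.2 CPM. Of the endothelial markers none was abundant enough to test, with KDR and STAB2 at 0 counts, and of the immune markers PTPRC and CD3E were at 0 counts. LYZ, an immune marker of the list, fell from 475 ± 60.3 to 356 ± 22.5 CPM with siNAT10 (adjusted p = 0.043 by edgeR, held at 0.049 with siCtrl replicate 4 left out and lost, at 0.074 to 0.17, with any other library left out and, at 0.065, with library size alone as the scaling). Of 7 cholangiocyte markers 5 were tested and none passed the test, with a median log2 difference of 0.18 (summed level 1549 to 1789 CPM in siCtrl and 1559 to 1831 CPM in siNAT10). At an unadjusted p under 0.05 by edgeR there were 2, against 15.7% of all tested genes. These went opposite ways, KRT19 at -0.27 and SPP1 at 0.22, and are named for that reason. None passed among the 3 stellate and mesenchymal markers tested. The cells were a single line, so a list name says where a gene is known as a marker and not that such cells were present. The part of these marker differences in the results was not tested. In bulk RNA a change in all cells and a change in some of the cells cannot be told apart.

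The sequences upstream of the factors that moved between siRNA groups or batches are shown here because they are the promoters next to the measured changes. RefSeq promoter windows (GRCh38.p14) of 250 bases before an annotated start matched 7 of the 9 genes, with 9 windows in all. FOXA2 and PROX1 were not matched. The windows are written 5′ to 3′ on the gene's strand, and capitals mark matches on either strand to 7 motifs: the TATA box TATAAA, the CCAAT box CCAAT, the forkhead core TGTTTA and its variant TGTTTG, the HNF4 core CAAAGT, the C/EBP motif TTGCNNAA and the ONECUT core ATTGAT. No matches overlap within the windows printed. The NR1H4 window, chr12:100503110-100503359 on the plus strand, lies inside the annotated gene upstream of a downstream start. The HNF4A windows lie upstream of its distal start, known as P2 (chr20:44355449-44355698, plus), and of its proximal start, known as P1 (chr20:44400989-44401238, plus). The CEBPA window is chr19:33302535-33302784 (minus), and the CEBPB window is chr20:50190580-50190829 (plus), upstream of the second of its listed starts.
NR1H4: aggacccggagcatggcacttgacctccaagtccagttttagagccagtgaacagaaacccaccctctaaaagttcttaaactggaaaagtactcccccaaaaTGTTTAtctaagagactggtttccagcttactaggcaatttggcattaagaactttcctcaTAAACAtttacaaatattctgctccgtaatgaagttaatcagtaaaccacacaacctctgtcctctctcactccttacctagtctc
HNF4A distal start: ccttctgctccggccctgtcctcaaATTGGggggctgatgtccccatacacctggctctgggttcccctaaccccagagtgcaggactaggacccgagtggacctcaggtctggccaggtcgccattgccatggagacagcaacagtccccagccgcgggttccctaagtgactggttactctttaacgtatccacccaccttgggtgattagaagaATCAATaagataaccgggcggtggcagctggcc
HNF4A proximal start: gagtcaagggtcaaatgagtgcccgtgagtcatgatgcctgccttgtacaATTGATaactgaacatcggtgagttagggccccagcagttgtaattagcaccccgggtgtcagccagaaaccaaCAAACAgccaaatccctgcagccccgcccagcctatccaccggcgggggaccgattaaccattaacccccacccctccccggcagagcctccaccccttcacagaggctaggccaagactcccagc
CEBPA: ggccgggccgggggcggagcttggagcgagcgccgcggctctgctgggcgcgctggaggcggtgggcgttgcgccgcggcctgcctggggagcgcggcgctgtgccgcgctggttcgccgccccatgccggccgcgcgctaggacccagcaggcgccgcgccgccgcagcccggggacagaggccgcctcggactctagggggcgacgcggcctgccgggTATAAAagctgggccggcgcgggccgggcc
CEBPB: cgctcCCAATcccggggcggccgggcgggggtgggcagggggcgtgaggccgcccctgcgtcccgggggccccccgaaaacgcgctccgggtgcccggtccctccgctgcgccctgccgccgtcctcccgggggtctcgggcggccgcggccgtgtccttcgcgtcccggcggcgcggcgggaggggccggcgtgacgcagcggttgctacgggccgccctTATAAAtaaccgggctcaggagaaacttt

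In the NR1H4 window the forkhead core occurred at 147 to 142 and at 86 to 81 bases before the start. The forkhead core occurred in 11% of the 35116 windows of the same length. This share and those below count windows with any match, and they were not matched for G and C content. The proximal HNF4A window held a forkhead variant at 126 to 121 bases (12.8% of all windows) and an ONECUT core at 200 to 195 bases (5.58% of all windows). Its distal window held an ONECUT core at 33 to 28 bases and a CCAAT box at 225 to 221 bases (32.0% of all windows). CEBPA had a TATA box at 30 to 25 bases and CEBPB one at 29 to 24 bases (10.7% of all windows). The CEBPB window held a CCAAT box as well, at 245 to 241 bases. The window of the first listed CEBPB start, not printed, held none of the 7 motifs. The HNF4 core (10.3% of all windows) and the C/EBP motif (9.05%) had no match in the windows printed, which says only that these letters are not in them. The NR1H4 window was 42.0% G and C and the CEBPA window 81.2%, against a median of 58.0% over all windows. A 3′ count does not show which start a transcript used, so the distal and proximal transcripts of HNF4A were measured as a single value, as were the protein isoforms that C/EBP transcripts give.

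All levels are CPM values on the scaled library size. The libraries read the 3′ end of mRNAs, so CPM does not grow with transcript length and was used to order the factors, although 3′ capture can differ between genes. HNF4A had the highest mean level, at the 96.8 percentile of the tested genes, followed by CEBPB (96.2), CEBPA (95.7), FOXA2 (92.7), FOXA3 (91.1), PROX1 (80.1), FOXA1 (60.1), NR1H4 (51.8) and ONECUT1 (13.8). The upper part of that order depended on the batch. CEBPB was the most abundant of the 9 in all 4 batch 1 libraries and HNF4A in all 4 batch 2 libraries. HNF4A exceeded CEBPB in 4 of 8 libraries and CEBPB exceeded CEBPA in 4 of 8, and in each case the 4 were the libraries of a single batch, so the order of these neighbours turned with the batch. FOXA2 exceeded FOXA3 in 6 of 8 libraries. From FOXA3 down, PROX1 was below FOXA3, FOXA1 below PROX1 and ONECUT1 below NR1H4 in 8 of 8 libraries, and NR1H4 was below FOXA1 in 7 of 8.

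**Figure D1:**
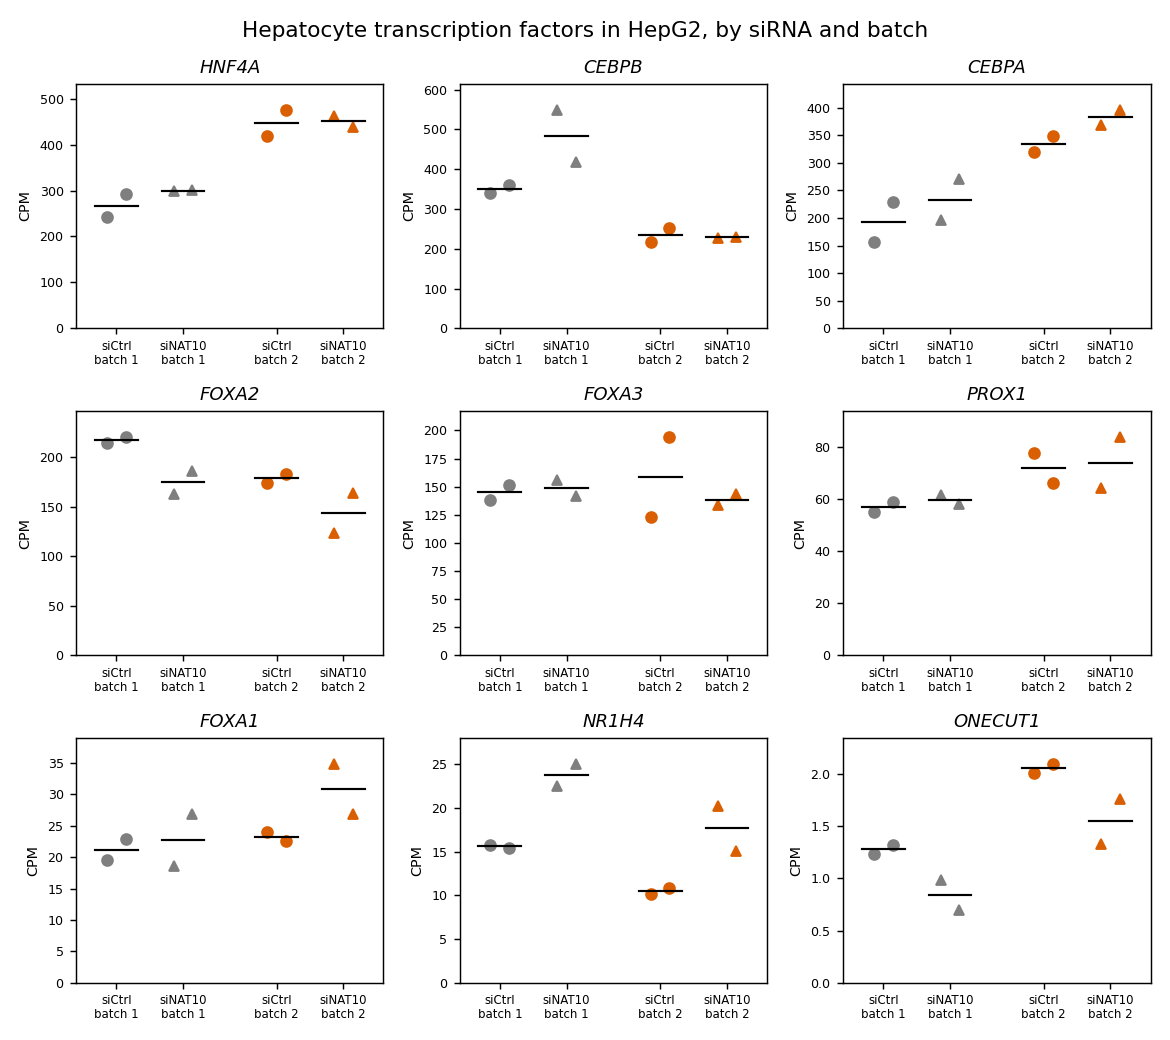
Level of each of the 9 transcription factors in CPM (y axis, linear from 0) in each library, by siRNA and batch (x axis); circles are siCtrl, triangles siNAT10, grey batch 1, orange batch 2, and bars are means of 2 libraries. NR1H4 lies above both siCtrl libraries in each batch, and HNF4A and CEBPA lie higher and CEBPB lower in all batch 2 libraries than in any batch 1 library.

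Of the nuclear receptors, NR1H4 (FXR; ENSG00000012504; GRCh38 chromosome 12, 100473708 to 100564414, plus strand) had 15.7, 15.4, 10.2 and 10.8 CPM in siCtrl replicates 1 to 4 and 22.5, 25.0, 20.2 and 15.1 CPM in siNAT10 replicates 1 to 4. Each siNAT10 library lay above both siCtrl libraries of its batch, while siNAT10 replicate 4 was below siCtrl replicates 1 and 2 of the other batch, so the groups as a whole overlapped. NR1H4 rose by 0.68 on the log2 scale (SE 0.12, 95% interval 0.42 to 0.94, adjusted p = 0.011 by edgeR). It was the 1 of the 9 factors called, against 2.28% of all tested genes in either direction with 0.816% higher and 1.46% lower. In 0 of the 9 factors did all siNAT10 libraries lie above or all below the siCtrl libraries, against 2.25% above and 3.15% below over all tested genes. The difference was 0.61 in batch 1 and 0.76 in batch 2, and the interaction of batch and siRNA did not pass the test (0.15, unadjusted p = 0.57 by edgeR).

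The NR1H4 call was lost with siNAT10 replicate 2 left out (adjusted p = 0.057 by edgeR) and held in the other 7 fits that each left out one library, with log2 differences of 0.59 to 0.74 over all 8. For log2 CPM, permuting the siRNA labels within batches (exact, two-sided) gave p = 0.056, the smallest its 36 arrangements allow, and the exact permutation test over all 70 arrangements gave p = 0.086. With no batch term the adjusted p was 0.34, and with the replicate number as a block it was 0.0078 (both edgeR). NR1H4 was lower in batch 2, at 14.1 ± 4.66 CPM against 19.7 ± 4.83 CPM in batch 1 (log2 difference -0.50, adjusted p = 0.0081 by edgeR).

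HNF4A (ENSG00000101076; chromosome 20, 44355699 to 44432845, plus strand), a lipid-binding nuclear receptor that drives much of the hepatocyte programme, had 242, 292, 418 and 476 CPM in siCtrl and 298, 301, 463 and 439 CPM in siNAT10 libraries. The siRNA groups overlapped, and their means were 357 ± 109 and 375 ± 88.0 CPM. The fitted log2 difference was 0.09 (95% interval -0.13 to 0.31, adjusted p = 0.74 by edgeR). The batches did not overlap: HNF4A was 283 ± 27.7 CPM in batch 1 and 449 ± 25.7 CPM in batch 2, 1.59-fold higher (log2 difference 0.67, SE 0.10, adjusted p = 0.00024 by edgeR). HNF4A was 1 of 5 factors called between batches, against 25.3% of all tested genes, 13% of them higher in batch 2 and 12.2% lower. It was also 1 of 5 factors whose batches did not overlap, against 22.7% of all tested genes.

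Among the forkhead factors, FOXA2 (ENSG00000125798; chromosome 20, 22580998 to 22585455, minus strand), a pioneer factor of liver enhancers, measured 214, 221, 174 and 183 CPM in siCtrl and 164, 187, 124 and 164 CPM in siNAT10 libraries. Within each batch both siNAT10 libraries lay below both siCtrl libraries, but siNAT10 replicate 2 of batch 1 exceeded the batch 2 siCtrl libraries. The log2 difference was -0.31 (SE 0.11, 95% interval -0.54 to -0.09) and was -0.31 in batch 1 and -0.31 in batch 2 alone. It did not pass the test over all genes (adjusted p = 0.15 by edgeR), and over the alternatives run the lowest adjusted p was 0.071. FOXA2, NR1H4 and ONECUT1 were the 3 of 9 factors whose siNAT10 libraries lay beyond both siCtrl libraries of their batch on the same side in each batch, against 14.7% of all tested genes. NR1H4 was above (6.76% of all tested genes), and FOXA2 and ONECUT1 were below (7.9%). Between batches the FOXA2 log2 difference was -0.28 (adjusted p = 0.061 by edgeR). It passed by DESeq2 (adjusted p = 0.041) and by edgeR with siNAT10 replicate 4 left out (adjusted p = 0.02).

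FOXA1 (ENSG00000129514; chromosome 14, 37589552 to 37596059, minus strand), which shares the forkhead domain of FOXA2 and is also known for its role at steroid receptor enhancers, had 19.6, 22.8, 23.9 and 22.6 CPM in siCtrl and 18.7, 26.9, 34.8 and 26.9 CPM in siNAT10. The highest library was siNAT10 replicate 3 and the lowest siNAT10 replicate 1, so the groups overlapped, and the log2 difference was 0.26 (95% interval -0.03 to 0.55, adjusted p = 0.39 by edgeR). FOXA3 (ENSG00000170608; chromosome 19, 45863989 to 45873797, plus strand), a forkhead factor abundant in adult liver, had 138 to 152 CPM in batch 1 siCtrl libraries, 123 and 194 CPM in batch 2 siCtrl libraries and 134 to 156 CPM in siNAT10 libraries. Its extremes were both siCtrl libraries of batch 2. The FOXA3 log2 difference was -0.08 (95% interval -0.35 to 0.19, adjusted p = 0.82 by edgeR), and it was 0.09 with siCtrl replicate 4 left out.

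As a share of the counts of the FOXA genes in a library, FOXA2 took 42.4% to 57.5%, FOXA3 37.2% to 48.5% and FOXA1 5.26% to 11.9%. The mean FOXA2 share was 53.3 ± 5.2% in siCtrl and 48.1 ± 4.22% in siNAT10 (SD, n = 4 each). The exact two-sided permutation p was 0.17 over all arrangements and 0.11 with labels permuted within batches. The FOXA1 share was 6.04 ± 0.968% and 8.26 ± 2.67% (exact permutation p = 0.17, and 0.11 within batches), and the FOXA3 share 40.6 ± 5.30% and 43.6 ± 2.88% (exact permutation p = 0.37, and 0.39 within batches). The 3 shares of a library sum to the whole, so they are not separate measurements.

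CEBPA (ENSG00000245848; chromosome 19, 33299934 to 33302534, minus strand), a factor of metabolic genes and cell cycle exit, had 157, 229, 320 and 348 CPM in siCtrl and 196, 271, 369 and 396 CPM in siNAT10. Both siNAT10 libraries lay above both siCtrl libraries in batch 2, the groups overlapped in batch 1, and the log2 difference was 0.24 (95% interval -0.04 to 0.51, adjusted p = 0.40 by edgeR). The batches separated: CEBPA was 213 ± 48.5 CPM in batch 1 and 358 ± 32.3 CPM in batch 2, 1.69-fold higher (log2 difference 0.75, SE 0.13, adjusted p = 6e-04 by edgeR).

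CEBPB (ENSG00000172216; chromosome 20, 50190830 to 50192668, plus strand), the C/EBP factor known for the acute phase and regeneration, had 340, 360, 217 and 252 CPM in siCtrl and 549, 418, 228 and 230 CPM in siNAT10. Its highest libraries were both siNAT10 libraries of batch 1. Over both batches the log2 difference was 0.22 (95% interval -0.04 to 0.48, adjusted p = 0.42 by edgeR). It was 0.47 in batch 1 (adjusted p = 0.16 by edgeR) and -0.03 in batch 2, and the difference between batches was -0.50 (95% interval -0.98 to -0.01, unadjusted p = 0.045, adjusted p = 1 by edgeR), so it did not pass over all genes. The interaction called 0 of 13840 genes, with 3.04% under an unadjusted p of 0.05 by edgeR and 1 called by DESeq2. CEBPB was 417 ± 94.4 CPM in batch 1 and 232 ± 14.4 CPM in batch 2, 1.77-fold higher in batch 1 (log2 difference -0.83, SE 0.13, adjusted p = 2e-04 by edgeR).

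Both C/EBP genes are intronless, and in GENCODE 44 their single exons share bases with genes on the other strand: 659 and 482 bases for CEBPA, and 231 bases with CEBPB-AS1 for CEBPB. Whether the counting used strand is not given in the sources used here, so reads of the opposite strand cannot be told apart from theirs. The ratio of CEBPA to CEBPB counts, chosen after the levels had been seen and so given without a test, was 0.461, 0.635, 1.47 and 1.38 in siCtrl replicates 1 to 4. In siNAT10 replicates 1 to 4 it was 0.356, 0.648, 1.62 and 1.72. All batch 1 libraries had more CEBPB and all batch 2 libraries more CEBPA, in both siRNA groups. The mean log2 ratio differed by 1.6 between the batches and by 0.03 between the siRNA groups.

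**Figure D2:**
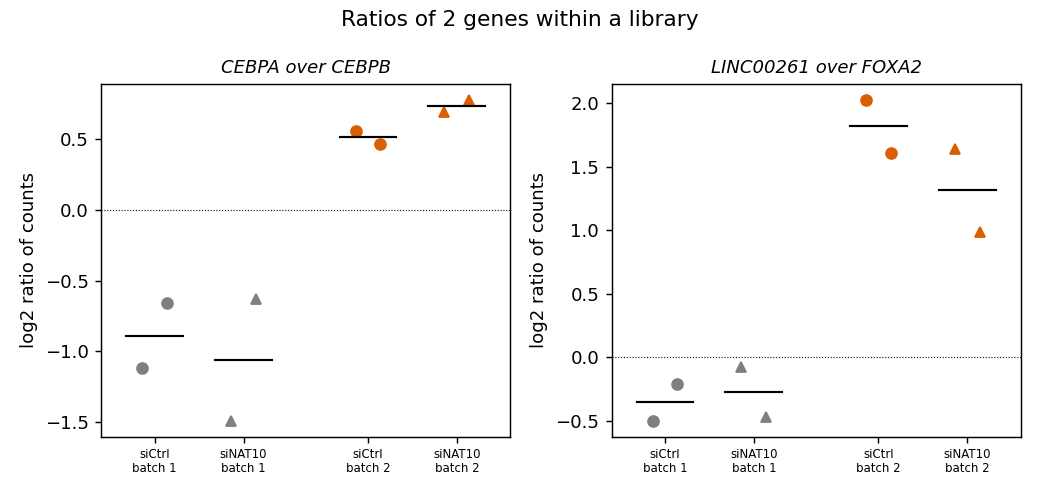
Log2 ratio of counts within a library (y axis) of CEBPA over CEBPB (left) and LINC00261 over FOXA2 (right), by siRNA and batch (x axis); points are libraries, bars means of 2, and the dotted line is an equal count. In both panels all batch 1 libraries lie below 0 and all batch 2 libraries above it.

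Of the homeodomain factors, PROX1 (ENSG00000117707; chromosome 1, 213983181 to 214041510, plus strand), which acts in hepatoblast expansion and represses HNF4A-driven genes, had 55.1, 58.7, 77.5 and 66.3 CPM in siCtrl and 61.4, 58.2, 64.2 and 83.8 CPM in siNAT10. The siRNA groups overlapped (log2 difference 0.06, 95% interval -0.17 to 0.28, adjusted p = 0.86 by edgeR). Every batch 2 library was above every batch 1 library, at 73.0 ± 9.28 against 58.4 ± 2.60 CPM, 1.25-fold higher (log2 difference 0.32, adjusted p = 0.036 by edgeR). That batch call was lost with siCtrl replicate 1 (adjusted p = 0.11), siCtrl replicate 2 (0.066), siCtrl replicate 3 (0.089), siNAT10 replicate 1 (0.063), siNAT10 replicate 2 (0.098) or siNAT10 replicate 4 (0.11) left out, all by edgeR.

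ONECUT1 (HNF6; ENSG00000169856; chromosome 15, 52755053 to 52791078, minus strand), a cut-homeodomain factor of liver and biliary development, was the least abundant. It had 34, 23, 43 and 29 counts in siCtrl and 18, 20, 17 and 18 counts in siNAT10 libraries. These gave 1.24, 1.32, 2.02 and 2.10 CPM in siCtrl and 0.985, 0.695, 1.33 and 1.76 CPM in siNAT10. In each batch the siNAT10 libraries were below both siCtrl libraries, with a log2 difference of -0.52 (SE 0.30, 95% interval -1.15 to 0.11, adjusted p = 0.42 by edgeR). ONECUT1 had 202 counts over 8 libraries, and its interval is the widest of the 9 factors. The ONECUT1 batches did not overlap, and the log2 difference of 0.78 between them did not pass the test (adjusted p = 0.065 by edgeR).

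**Figure D3:**
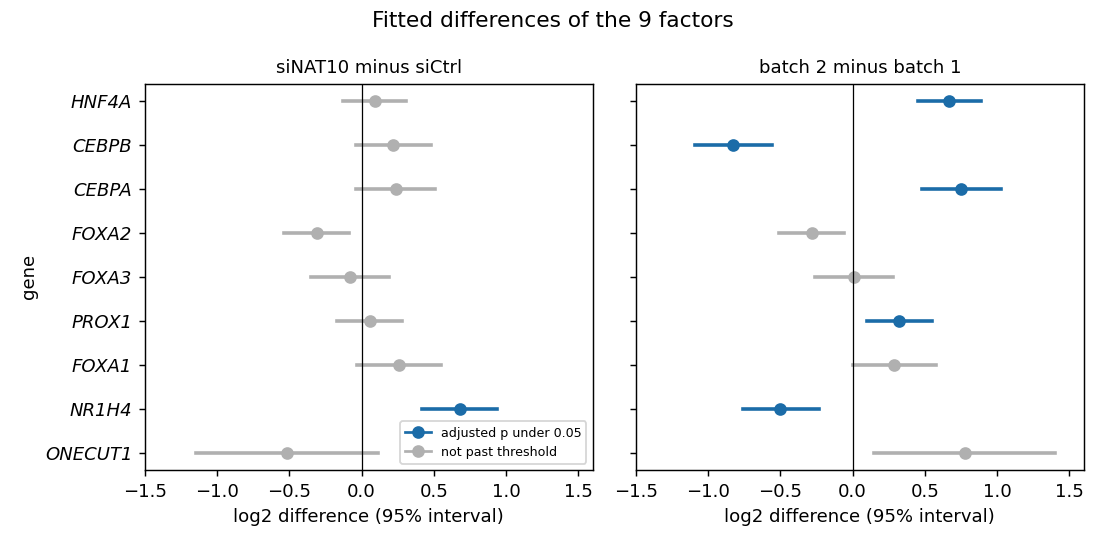
Fitted log2 differences (x axis, with 95% intervals) of the 9 factors (y axis, by mean level) for siNAT10 minus siCtrl (left) and batch 2 minus batch 1 (right); blue marks an adjusted p under 0.05. NR1H4 is the one called at left (0.68), and HNF4A, CEBPA, PROX1, CEBPB and NR1H4 are called at right.

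The median absolute log2 difference between siRNA groups was 0.24 over the 9 factors and 0.16 over all tested genes, and between batches it was 0.50 and 0.26. Of the 9 factors 6 had a positive and 3 a negative siRNA difference, with a median of 0.09, against a median of -0.002 over all tested genes. The sign was the same in both batches for 7 of 9, against 61.9% of 13299 genes fitted in both, and the exceptions were FOXA3 and CEBPB. The interaction of batch and siRNA had unadjusted p of at least 0.30 (edgeR) for each factor other than CEBPB.

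The 1 protein-coding gene whose log2 CPM over the 8 libraries was most like that of each factor, among up to 5876 genes of at least 20 CPM, was found for the 8 factors with at least 10 CPM. The Pearson r was 0.994 for HNF4A with WDR3, 0.984 for CEBPB with SIX4, 0.972 for CEBPA with ACOT2, and 0.959 for PROX1 with ZNF703. It was 0.971 for NR1H4 with LY6D, 0.970 for FOXA2 with PHKG2, 0.924 for FOXA1 with DMAP1 and 0.866 for FOXA3 with DDX23. Each is the highest over all genes compared over the same 8 libraries, which share batch, siRNA and depth, and is given as a description.

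Transcripts next to the factors were read from a list of 6 neighbouring noncoding genes, of which 3 were tested and none was called between siRNA groups. LINC00261 lies 2355 bases from FOXA2 on the same strand. It had 151, 191, 711 and 559 CPM in siCtrl and 155, 134, 386 and 326 CPM in siNAT10 libraries. The 4 batch 2 libraries were all above the 4 batch 1 libraries, a log2 difference of 1.6 (adjusted p = 2.1e-06 by edgeR), while that of FOXA2 was -0.28. Between siRNA groups LINC00261 had a log2 difference of -0.54 (SE 0.14, adjusted p = 0.051 by edgeR), and the adjusted p was 0.031 with the replicate block and 0.037 with siCtrl replicate 1 left out. That difference was -0.24 in batch 1 alone and -0.83 in batch 2 alone. The interaction of batch and siRNA was -0.59 (unadjusted p = 0.03 by edgeR) and did not pass over all genes. The ratio of LINC00261 to FOXA2 counts, chosen after the values had been seen, was 0.705 to 0.945 in batch 1 and 1.99 to 4.08 in batch 2. HNF4A-AS1, antisense to HNF4A, had a log2 difference of -0.09 between siRNA groups (adjusted p = 0.88 by edgeR) and of 0.83 between batches (adjusted p = 0.0096 by edgeR), and PROX1-AS1 had 0.00 between siRNA groups (adjusted p = 1 by edgeR). In GENCODE 44 neither antisense gene reaches the last exon of its partner, where 3′ reads of HNF4A and PROX1 fall.

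Partner factors of the same network were read from a list. Of 35 other liver factors 31 were tested, and 0 were called between siRNA groups (7 at an unadjusted p under 0.05 by edgeR, against 15.7% of all tested genes), with a median log2 difference of -0.01. With the replicate block 3 of them, named for that reason, passed by edgeR: CEBPD (-0.42, adjusted p = 0.024, against 0.097 with the batch term), ZBTB20 (0.43, 0.043 against 0.088) and KLF15 (1.16, 0.045 against 0.062). Between batches 3 of the 31 were higher and 10 lower in batch 2, against 13% and 12.2% of all tested genes. By level the leading ones were XBP1, a factor of the secretory pathway (0.10, adjusted p = 0.68), the orphan receptor NR2F6 (-0.01, 0.98) and the T-box factor TBX3 (0.24, 0.24), all by edgeR. NR2F6 had a log2 difference of 0.03 with library size alone as the scaling. Chosen after the values had been seen, CEBPD, another C/EBP factor, had a batch difference of -1.82 (adjusted p = 5.2e-07 by edgeR), in the direction of CEBPB, and ATF5 one of 1.5 (adjusted p = 3.3e-06 by edgeR), in the direction of CEBPA. RXRA, the partner of FXR and likewise chosen afterwards, had 81.4 ± 6.70 CPM in siCtrl and 80.1 ± 4.45 CPM in siNAT10 (log2 difference -0.02, adjusted p = 0.96 by edgeR).

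Coregulators gave 0 calls among 21 tested genes between siRNA groups (4 at an unadjusted p under 0.05 by edgeR, against 15.7% of all tested genes) and a median of -0.05. The most abundant were PRMT1, an arginine methyltransferase (-0.16, adjusted p = 0.70), the stress factor ATF4 (-0.24, 0.63) and the pseudokinase TRIB3 (-0.11, 0.63), all by edgeR. With siCtrl replicate 3 left out, the values were 0.05 for PRMT1 and 0.10 for ATF4.

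The genes that FXR is known to regulate were read next. Of 21 listed FXR targets 16 were tested, 2 rose and 1 fell, against 0.816% and 1.46% of all tested genes, and the median log2 difference was 0.02. CYP8B1, the sterol 12-hydroxylase of bile acid synthesis and a gene that FXR signalling is known to repress, had 2.11, 2.65, 4.17 and 3.11 CPM in siCtrl and 3.61, 4.76, 11.7 and 7.72 CPM in siNAT10. Within each batch both siNAT10 libraries were above both siCtrl libraries, and CYP8B1 rose by 1.13 on the log2 scale (SE 0.22, adjusted p = 0.011 by edgeR). SLC51A, a subunit of the basolateral bile acid exporter and a gene that FXR is known to induce, fell from 18.9 ± 1.8 to 13.3 ± 0.788 CPM (log2 difference -0.50, SE 0.12, adjusted p = 0.040 by edgeR). FGG, the fibrinogen gamma chain, rose from 177 ± 11.7 to 246 ± 21.8 CPM, on the same side as NR1H4 (0.48, SE 0.10, adjusted p = 0.020 by edgeR).

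Other FXR genes, named after their values had been seen, did not pass the test. NR0B2 had 145, 131, 82.4 and 77.9 CPM in siCtrl and 116, 112, 70.7 and 65.4 CPM in siNAT10 libraries. In each batch the siNAT10 libraries of NR0B2 were below both siCtrl libraries, on the opposite side to NR1H4 (log2 difference -0.26, SE 0.09, adjusted p = 0.18 by edgeR). NR0B2 and NR1H4 were both lower in batch 2 (NR0B2 log2 difference -0.76, adjusted p = 3.8e-05 by edgeR). SLC51B, the partner subunit of SLC51A, had 1.36 ± 0.452 CPM in siCtrl and 2.39 ± 0.851 CPM in siNAT10, on the same side as NR1H4 (0.75, adjusted p = 0.21 by edgeR). CYP7A1 had 4 counts and FGF19 11 counts over all libraries, and ABCB11 and SLC10A1 had 0, so these gave no measurement.

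The call for CYP8B1 was lost with siCtrl replicate 1, siNAT10 replicate 2 or siNAT10 replicate 3 left out (adjusted p 0.051 to 0.06 by edgeR). For SLC51A it held only with siCtrl replicate 2 left out and was lost with any other library left out (0.068 to 0.16), with library size alone as the scaling (0.068) and with the libraries thinned (0.077), all by edgeR. For FGG it held with siCtrl replicate 3 or siNAT10 replicate 4 left out and was lost with any other (0.06 to 0.081 by edgeR).

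**Figure D4:**
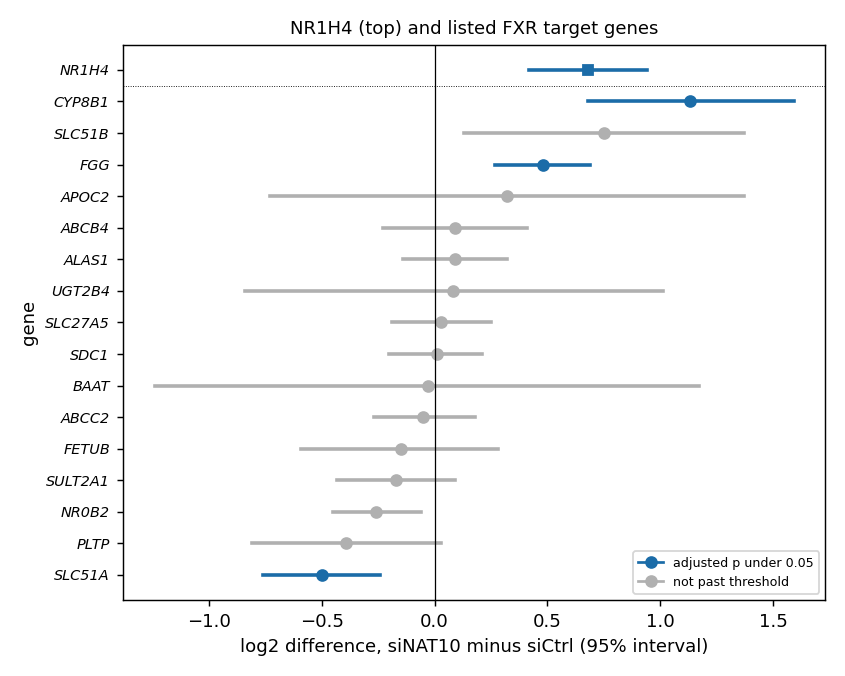
Fitted log2 differences, siNAT10 minus siCtrl (x axis, with 95% intervals), of NR1H4 and of the 16 tested FXR target genes (y axis); blue marks an adjusted p under 0.05. NR1H4 (0.68), CYP8B1 (1.13) and FGG (0.48) lie above 0 and SLC51A (-0.50) below, and most other targets lie near 0.

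The hepatocyte markers, which are plasma protein genes of the kind these factors drive, were lower in siNAT10 libraries as a sum, as given above. The largest parts of that sum were AHSG and ALB, and neither passed the test. AHSG, named for that reason, had 8898 ± 896 CPM in siCtrl and 6779 ± 950 CPM in siNAT10 (adjusted p = 0.11 by edgeR). ALB is given below (adjusted p = 0.072 by edgeR). Of the 9 tested, 0 rose and 2 fell by the test (0.816% and 1.46% of all tested genes). By sign 8 were negative and 1 positive, and the median log2 difference was -0.37, while HNF4A itself was at 0.09. The positive marker was FGB, named for its direction, with 90.3 ± 10.4 CPM in siCtrl and 117 ± 22.8 CPM in siNAT10. Its log2 difference was 0.37 (adjusted p = 0.17 by edgeR), on the same side as FGG, given above. Among the negative markers APOA1, also named afterwards, was at -0.01 (adjusted p = 0.99 by edgeR). APOA2, an apolipoprotein of high-density lipoprotein, fell from 1914 ± 271 to 1375 ± 84.5 CPM (log2 difference -0.48, adjusted p = 0.040 by edgeR). TF, the iron carrier transferrin, fell from 2086 ± 250 to 1474 ± 114 CPM (-0.49, adjusted p = 0.023 by edgeR). For both genes every siNAT10 library lay below every siCtrl library. The APOA2 call held with siCtrl replicate 4 left out and was lost with any other library left out (adjusted p 0.055 to 0.15). The TF call held with siCtrl replicate 2, siCtrl replicate 4 or siNAT10 replicate 4 left out and was lost with any other (0.053 to 0.091, both by edgeR).

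Of 16 FOXA targets 13 were tested and none was called, with 7 at an unadjusted p under 0.05 by edgeR (15.7% of all tested genes) and a median of -0.30. Among the 13, 4 were positive and 9 negative. FOXA2 is itself in that list and among the 7. DIO1, also among the 7 and named for its direction, was higher in siNAT10 (0.47, adjusted p = 0.17 by edgeR). The most abundant were ALB, serum albumin, with means of 4411 ± 175 and 3422 ± 198 CPM in siCtrl and siNAT10 (log2 difference -0.37, adjusted p = 0.072 by edgeR), the fetal plasma protein AFP (-0.28, adjusted p = 0.19 by edgeR) and IGFBP1, a binding protein of insulin-like growth factors (-0.51, adjusted p = 0.084, with 0.014 under the replicate block and 0.037 with siNAT10 replicate 1 left out, by edgeR). Every siNAT10 library was below every siCtrl library for ALB. ALB is also in the hepatocyte marker and C/EBP lists.

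Of 24 C/EBP and acute phase targets 18 were tested, 1 rose and 1 fell (0.816% and 1.46% of all tested genes), and the median was -0.12. SAA4, an apolipoprotein of the serum amyloid family, passed with the replicate block only (-0.61, adjusted p = 0.045, against 0.055 with the batch term, by edgeR), and is named for that reason. FGG, given above, rose. CPS1, the entry enzyme of the urea cycle, had 11.3, 12.9, 14.8 and 10.6 CPM in siCtrl and 7.77, 6.26, 6.82 and 7.72 CPM in siNAT10, without overlap. CPS1 fell by 0.80 on the log2 scale (SE 0.15, adjusted p = 0.011 by edgeR), and the call was lost with siCtrl replicate 2 or siNAT10 replicate 2 left out (0.051 and 0.067). SAA1 and CRP, acute phase proteins, had no count in any library; as for APOB, whether the annotation or the 3′ counting lost their reads was not tested. Between batches 3 of the 18 were lower and 0 higher in batch 2, against 12.2% and 13% of all tested genes.

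**Figure D5:**
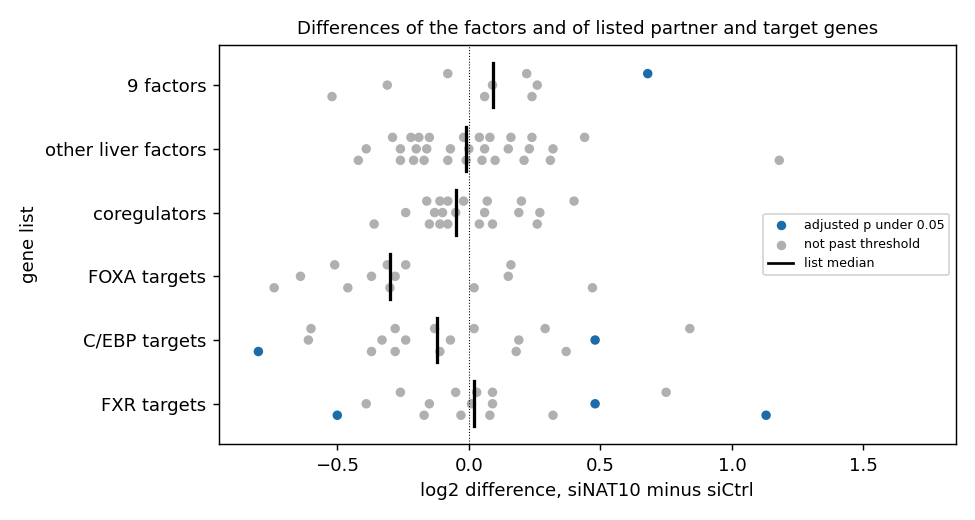
Fitted log2 differences, siNAT10 minus siCtrl (x axis), of the 9 factors and of the tested genes of each list (y axis); each point is a gene, blue marks an adjusted p under 0.05, and black bars are list medians. The median is 0.09 for the 9 factors, -0.30 for FOXA targets and -0.12 for C/EBP targets; genes can stand in more than one list.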

How the data were processed

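The deposited values are whole-number counts per gene, made by the authors from QuantSeq 3′ libraries with Trim Galore 0.6.10, cutadapt 3.5, STAR 2.7.9a and featureCounts on GRCh38, per the submitters' processing notes. The kit is given as FWD in the series text and REV in the sample protocols, and the annotation release, strand setting and treatment of reads with several matches are not given in the sources used here. Columns were matched to samples through the column names in their descriptions, which give the matrix a name with a further prefix; it was taken as the same matrix, and 0 columns were left unused. Of 86369 identifiers, 61458 matched GENCODE 44, and those without a match held 1.27% to 1.65% of the counts per library and were tested too.

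The test was that of edgeR 4.0.16 in R 4.3.3 (filterByExpr by group with a minimum count of 10, TMM, glmQLFit and glmQLFTest, batch and siRNA as terms), with a call at a Benjamini-Hochberg adjusted p under 0.05 over all 13840 tested genes. Standard errors were taken from the F statistic. The batch term and the interaction of batch and siRNA were tested in the same way. The fit was tested on simulated data. Alternatives were DESeq2 1.42.0, scaling by RLE or by library size alone, the absence of a filter, a mean of at least 10 counts, libraries thinned to 9731718 counts, no batch term, a replicate block, each batch alone, and each library left out in turn.

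Same-numbered libraries deviated together from their group means (correlations over genes of 0.39, 0.38, 0.45 and 0.36). Every value was over 0.1, the minimum set for a fit that takes the numbers as pairs. Same-numbered libraries always share a batch, so these values cannot show whether libraries are paired within a batch. Such pairing was not tested, and the replicate block is given as an alternative only. The factors, lists, tests and marker lists were chosen with earlier results of these data known. Genes named were the 9 factors, NAT10, the called genes of each list or, where fewer than 3 were called, its most abundant up to 3, and the most similar gene of each factor; others are said to be chosen afterwards. A further target list is not reported here. Intervals and tests cover these libraries, and molecular identifiers are not named in the labels.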

Additional observations from a re-analysis of the deposited data

How the results depend on the processing

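Fits are edgeR unless named. The number of genes called in siNAT10 vs siCtrl, 315, was 567 by DESeq2, 595 with no filter, 15 with no batch term, 173 in batch 1 alone and 0 in batch 2 alone (946 at an unadjusted p under 0.05), and 75 to 286 with one library left out: 75 when siNAT10 replicate 2 was dropped, 178 for siNAT10 replicate 3, 134 for siNAT10 replicate 1, 132 for siCtrl replicate 2 and 104 for siCtrl replicate 1. With the replicate block 454 genes were called, and the block changed no call among the 9 factors. Library size alone gave 138 higher and 149 lower, against 113 and 202. The interaction count, 0, was 1 by DESeq2, 15 with no filter, and 0 to 2 with one library left out (2 without siCtrl replicate 4). The batch count, 3500, was 2531 to 3627. The batch calls of HNF4A, CEBPA, CEBPB and NR1H4 held in 14 of 14 alternatives, and that of PROX1 in 6 of 14 (adjusted p = 0.056 with library size alone and 0.089 with no filter, by edgeR). The NR1H4 call held in 14 of 18 alternatives. It was lost with no batch term and in each batch alone (adjusted p = 0.054 and 0.48), as well as without siNAT10 replicate 2.

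Signs turned for small differences. Between siRNA groups FOXA3 was 0.04 in batch 1 alone and -0.17 to 0.09 with one library left out, CEBPB -0.03 in batch 2 alone, and PROX1 -0.02 to 0.14 with one left out. NR2F6 was 0.03 with library size alone, 0.08 in batch 1 alone and -0.06 to 0.07 with one left out. In batch 1 alone PRMT1 was 0.14 and ATF4 0.03, with leave-one-out ranges of -0.31 to 0.05 and -0.40 to 0.10. PROX1-AS1 was 0.00 with no filter, -0.04 thinned, -0.11 in batch 1 alone and -0.07 to 0.12 with one left out, and HNF4A-AS1 0.01 thinned and -0.25 to 0.10 with one left out. The FOXA3 batch difference was 0.00 with library size alone, -0.02 with no filter and -0.16 to 0.12 with one left out, and the NR1H4 interaction -0.09 to 0.32. The cause of these changes was not tested. Each batch held 2 libraries per group, so a batch alone has little precision.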
